A study of Mus musculus with 24 samples.

Results

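Fatty acid oxidation genes were the 35 genes of a list matched by gene symbol, all of them found among the 37315 genes of both allele-specific count tables. Grouped by where their products work, 17 are mitochondrial (the carnitine shuttle, the acyl-CoA dehydrogenases with their electron transfer partners, and the later steps of the spiral), 13 are peroxisomal, 2 (Eci2 and Crat) are found in both organelles, and 3 (Cd36, Acsl1 and Ppara) serve uptake, activation and transcriptional control. Each library gave, for every gene, counts of the maternal 129S1 allele and of the paternal Cast/Ei allele at strain variants in exons. A read or read pair over several variants can add several counts, and below, reads of a gene means these counts. Allelic imbalance (AI) is the maternal share of these counts. The level of a gene is its allelic counts, both alleles together, scaled so that a library sums to 1000000 over chromosomes other than X (CPM).

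The kidney data came from total RNA of the left kidney of 1 adult female 129S1/SvImJ x CAST/EiJ F1 mouse. Experiment 1 used the NEBNext Ultra kit on 100 ng of RNA, Experiment 2 used SMARTseq v4 on 10 ng, and Experiment 3 used SMARTseq v4 on 0.1 ng, with 6 libraries each. Abl.1 and Abl.2 are B-lineage cell lines immortalised with Abelson virus, each a single clone of the same F1 background, with 2 SMARTseq v4 libraries from 10 ng each. The Abl.2 libraries were also sequenced a second time. Kidney libraries held 6138693 to 6702351 allelic counts and clone libraries 19213150 to 22241719 in the first run. Libraries of one experiment share one RNA, so p-values measure only the spread between libraries. Tissue, animal, read layout and sequencer differ together between kidney and clones and cannot be told apart. Experiment 1 also differs from the clones in kit and input, and Experiment 3 in input.

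Mitochondria take up activated long-chain fatty acids as carnitine esters and shorten them by repeated dehydrogenation, hydration, second dehydrogenation and thiolysis, and pass electrons to the respiratory chain. Peroxisomes run a related spiral on very long, branched and dicarboxylic acids, with oxidases that make hydrogen peroxide at the first step, and hand shortened acyl groups back as carnitine esters. The proximal tubule of the kidney, which reabsorbs most of the filtrate, depends on both systems for energy, and the nuclear receptor PPARα drives many of their genes.

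Levels of fatty acid oxidation genes were far higher in kidney than in the clones. Against the mean of both clones, 34 of 35 genes were called higher in Experiment 2 and none lower, with a median log2 fold change of 3.09 (edgeR's quasi-likelihood test with Benjamini-Hochberg adjustment, called at adjusted p under 0.05 and at least 1 log2 unit). Of all genes tested, 42.4% were called higher and 26.5% lower, with a median of 0.43. All 17 mitochondrial genes were called higher, with a median of 2.83, and 12 of the 13 peroxisomal genes, with a median of 3.93. Against the same clone libraries, 31 of 35 were called higher in Experiment 1 (background 42.8% higher and 28.4% lower) and 34 of 35 in Experiment 3 (background 41.3% higher and 25.4% lower), again with none lower. The medians were 3.02 and 3.13. For Acox2, Ehhadh and Ppara, without a read in the clones, the fitted fold changes depend on the prior count. Their lower bounds all lay above the medians, so setting them there could not move the medians. Eci1, Decr1 and Cd36, with at most 1 count in Abl.1, were left at their fitted values.

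Summed over all 35 genes, the level was 18344 to 18538 CPM in the 6 Experiment 2 libraries, 13685 to 14428 in Experiment 1 and 17983 to 18535 in Experiment 3. It was 3034 and 3417 CPM in Abl.1 and 2498 and 2533 in Abl.2, so that the kidney and clone libraries lay far apart. Mitochondrial genes summed to 11251 ± 88.7 CPM (SD, n = 6) and peroxisomal genes to 6592 ± 46.5 in Experiment 2. The sum weights each gene by its strain variants and expression, so it compares libraries of one read layout and not genes. In bulk RNA, fewer cells of a type and less RNA per cell cannot be told apart.

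**Figure D1:**
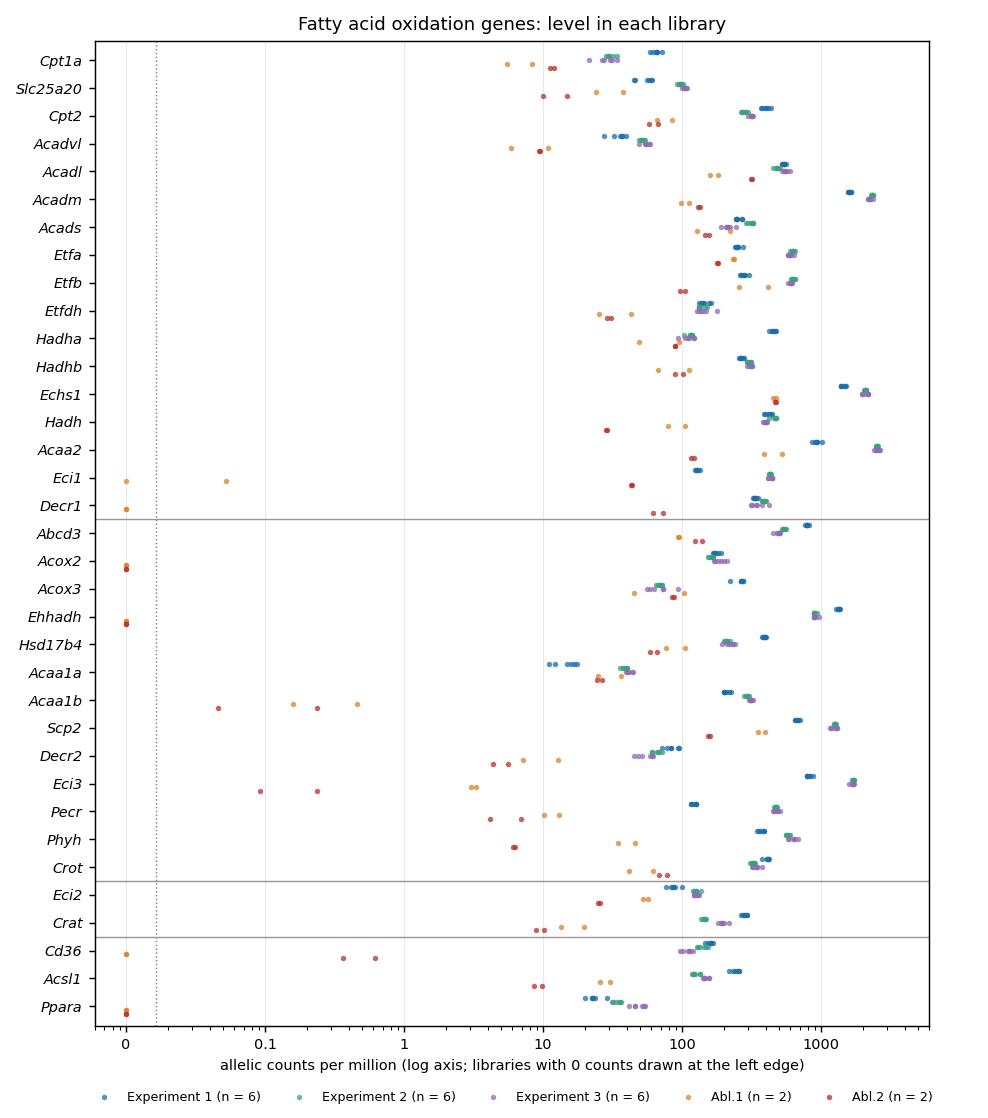
Level of each of the 35 fatty acid oxidation genes in every library, in CPM of allelic counts on a log axis, with mitochondrial genes at the top, then peroxisomal genes, genes of both organelles, and uptake, activation and control. Libraries with 0 counts are drawn left of the dotted line, where Acox2, Ehhadh and Ppara of both clones and Decr1 and Cd36 of Abl.1 sit.

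Scaling sets part of these values. When libraries were scaled by their totals in place of TMM, the median of all genes in Experiment 2 against the clones moved by 0.70, from 0.43 to -0.27, and the share of calls that were higher from 61.5% to 48.6%. The median of the 35 genes was then 2.38, with 31 called. In Experiments 1 and 3 against the clones that share of calls went from 60.1% to 55.1% and from 61.9% to 49.2%.

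Entry of fatty acids begins with CD36, a membrane protein that binds long-chain fatty acids, and ACSL1, a long-chain acyl-CoA synthetase. Cd36 (chr5:17781690-17888801, GRCm38) had 145 to 167 CPM (median 159) in Experiment 1, 128 to 153 (median 139) in Experiment 2 and 96.6 to 119.9 (median 111) in Experiment 3. No read was found in either Abl.1 library and 13 and 8 counts in those of Abl.2, so Experiment 2 was at least 1907-fold higher than Abl.1. Acsl1 was at 118 to 134 CPM (median 123) in Experiment 2 against 25.6 and 30.3 in Abl.1 and 9.78 and 8.65 in Abl.2, and its log2 fold change against the clones was 3.67 (SE 0.08, adjusted p = 1.22e-13). Kidney and clone libraries did not overlap for either gene.

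The carnitine shuttle is made of CPT1A, which forms acylcarnitine at the outer membrane and is the main point of control, the carrier SLC25A20, and CPT2, which restores acyl-CoA inside. Cpt1a had 58.5 to 71.7 CPM (median 65.0) in Experiment 1, 28.3 to 33.8 (median 29.9) in Experiment 2 and 21.5 to 34.0 (median 28.9) in Experiment 3, against 5.54 and 8.37 in Abl.1 and 11.2 and 12.0 in Abl.2. All 3 shuttle genes were called higher in each experiment. In Experiment 2 the log2 fold change was 2.47 (SE 0.11, adjusted p = 1.67e-10) for Cpt1a, 3.01 (SE 0.13) for Slc25a20 and 2.74 (SE 0.07) for Cpt2. Cpt2 reached 267 to 296 CPM (median 280.0) in Experiment 2, and the clone libraries lay between 58.2 and 84.0.

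The first oxidation is done by acyl-CoA dehydrogenases of graded chain length. Acadm (chr3:153922357-153944632), which encodes the medium-chain enzyme, had 1548 to 1645 CPM (median 1604) in Experiment 1, 2293 to 2379 (median 2319.7) in Experiment 2 and 2163 to 2362 (median 2224) in Experiment 3. Its clone libraries gave 98.7 and 113 in Abl.1 and 130.4 and 135 in Abl.2. That gap was a log2 fold change of 5.00 (SE 0.05, adjusted p = 1.53e-16) in Experiment 2, the largest of the 4 dehydrogenases. Acadvl (very long chains), Acadl (long chains) and Acads (short chains) differed from the clones by 3.24 (SE 0.13), 1.75 (SE 0.05) and 1.65 (SE 0.11). With library totals the Acads value in Experiment 2 was 0.94 and no longer called. Acads was not called in Experiment 1, at 0.95 (SE 0.11), and its level of 244 to 272 (median 249) CPM there lay just above the 128 and 222 CPM of the Abl.1 libraries. Its Experiment 3 libraries, at 191 to 246 (median 212) CPM, overlapped those of Abl.1.

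Electrons from these dehydrogenases pass to the flavoprotein ETF, whose subunits are encoded by Etfa and Etfb, and from it to the ubiquinone oxidoreductase encoded by Etfdh. Etfa had 594 to 644 CPM (median 623) in Experiment 2 but only 240.4 to 274 (median 251) in Experiment 1, close to the 234 and 234 of Abl.1 and above the 182 and 177 of Abl.2. Etfb showed the same split, with 608 to 652 CPM (median 624) in Experiment 2 and 262 to 303 (median 276) in Experiment 1 against 416 and 257 in Abl.1 and 106 and 96.3 in Abl.2. Neither gene was called in Experiment 1, at 0.59 (SE 0.08) and 0.87 (SE 0.14), while both were called in Experiment 2, at 2.30 (SE 0.06) and 2.46 (SE 0.14). Of the 50-base words in the longest annotated transcript, 67.3% were shared with the gene model Gm45233 for Etfb and 4.02% with Gm15285 for Etfa. Etfdh was called higher in all 3 experiments and stood at 133 to 152 CPM (median 134) in Experiment 2.

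The trifunctional protein carries the next 3 steps on long chains, with its α subunit encoded by Hadha and its β subunit, the thiolase, by Hadhb. These genes lie head to head, Hadha on the minus strand at chr5:30118304-30155162 and Hadhb on the plus strand at chr5:30155248-30184593, with 86 bases between them. Their RefSeq promoter windows (GRCm38.p6, from 250 bases before to 50 after the start) therefore overlap. The Hadhb window, chr5:30155003-30155302 on the plus strand, is shown because most of it lies in the windows of both genes. The 228 bases it shares with the Hadha window are in capitals. Promoter use was not measured, and the kidney levels below are readings of one RNA with different kits and inputs.
Hadhb window: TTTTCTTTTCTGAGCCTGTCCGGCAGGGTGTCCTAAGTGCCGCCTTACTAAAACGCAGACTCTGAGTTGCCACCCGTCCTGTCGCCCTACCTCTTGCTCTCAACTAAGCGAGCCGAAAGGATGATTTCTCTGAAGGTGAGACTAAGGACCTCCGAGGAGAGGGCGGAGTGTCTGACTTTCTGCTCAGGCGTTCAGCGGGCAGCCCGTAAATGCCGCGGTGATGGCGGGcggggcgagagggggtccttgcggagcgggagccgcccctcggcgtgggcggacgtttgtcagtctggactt
Hadha had 420.0 to 469.7 CPM (median 452) in Experiment 1 and 103 to 118 (median 115) in Experiment 2, whereas Hadhb had 256 to 279 (median 264) and 291 to 314 (median 301). The clones gave 49.4 and 95.1 for Hadha in Abl.1 and 88.7 and 89.6 in Abl.2, so that the gap to Experiment 2 was small, with a log2 fold change of 1.22 (SE 0.12, adjusted p = 6.08e-07). Without replicate 1 of Abl.1 it was 1.00 and no longer called, and 0.50 with library totals. Hadhb was called higher in each experiment, by 2.42 (SE 0.10) in Experiment 2, and 62.4% of its 50-base words are also found in other gene models, nearly all of them in Gm13910.

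On shorter chains the same reactions are run by separate enzymes, the hydratase of Echs1, the dehydrogenase of Hadh and the thiolase of Acaa2. Acaa2 had 2477 to 2571 CPM (median 2508) in Experiment 2 against 387 and 519.9 in Abl.1 and 122 and 116 in Abl.2, a log2 fold change of 4.15 (SE 0.06, adjusted p = 2.67e-15). Echs1 differed by 2.85 (SE 0.05), with clone libraries that lay close together at 453 to 476 CPM. Hadh differed by 3.87 (SE 0.08). All 3 were also called in Experiments 1 and 3.

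Double bonds need the isomerase of Eci1 and the dienoyl-CoA reductase of Decr1, and these genes separated the clones. Eci1 had 423 to 433 CPM (median 428) in Experiment 2, 1 and 0 counts in the Abl.1 libraries and 908 and 958 counts, or 43.1 and 43.8 CPM, in those of Abl.2. Decr1 had 373 to 401 CPM (median 384) in Experiment 2, no read in Abl.1 and 1297 and 1590 counts, or 61.5 and 72.7 CPM, in Abl.2. Experiment 2 was at least 5266-fold above Abl.1 for Decr1. For Eci1 its ratio to the single Abl.1 count was 17511, with a 95% counting interval of 3143 to 691704. Counting intervals and floors of 3 counts cover counting error only, and they treat each count as a separate read.

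Among peroxisomal genes, Ehhadh and Acox2 were without a read in any clone library. Ehhadh (chr16:21761287-21787807), the L-bifunctional enzyme and a classical PPARα target, had 1280.2 to 1366 CPM (median 1333) in Experiment 1, 882 to 932 (median 892) in Experiment 2 and 888 to 967 (median 891) in Experiment 3. Over the 4 clone libraries together, a floor of 3 counts made Experiment 2 at least 25057-fold higher. Acox2, the branched-chain acyl-CoA oxidase, had 155 to 168 CPM (median 163) in Experiment 2 and was at least 4522-fold higher. Acox3, another oxidase of branched chains, gave the opposite picture. It had 65.4 to 71.4 CPM (median 68.9) in Experiment 2 within the clone range of 44.7 to 103 CPM, and was not called at 0.51 (SE 0.15, adjusted p = 0.00659), a value that turned to -0.21 with library totals. In Experiment 1 the same gene stood at 219 to 273 (median 266) CPM and was called higher, at 2.01 (SE 0.16).

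Import into the peroxisome runs through the ABC transporter of Abcd3, and the D-bifunctional enzyme is encoded by Hsd17b4. Abcd3 had 522 to 562 CPM (median 538) in Experiment 2 against 92.9 and 94.6 in Abl.1 and 123 and 139 in Abl.2, a log2 fold change of 2.98 (SE 0.06). Hsd17b4 differed by 2.19 (SE 0.08), and both were called in all 3 experiments. For thiolysis, Scp2 makes the sterol carrier thiolase, and it stood at 1229.9 to 1273 CPM (median 1258) in Experiment 2 against 394 and 351 in Abl.1 and 152 and 159 in Abl.2. Its fold change was 3.08 (SE 0.07), and 41.4% of its 50-base words also occur in the pseudogene Scp2-ps2.

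The straight-chain thiolase has 2 gene copies on chromosome 9, Acaa1a (chr9:119339676-119350299, plus strand) and Acaa1b (chr9:119148023-119157093, minus strand), 182583 bases apart. Acaa1b had 281 to 304 CPM (median 292) in Experiment 2 but only 3 and 10 counts in the Abl.1 libraries and 5 and 1 in those of Abl.2. Acaa1a had 35.5 to 40.4 CPM (median 38.7) in Experiment 2, 11 to 17.6 (median 15.3) in Experiment 1, 25.0 and 36.1 in Abl.1 and 24.5 and 26.7 in Abl.2. Against the clones it was called higher in Experiment 2, at 1.17 (SE 0.10, adjusted p = 6.59e-08), and gave -0.63 (SE 0.16, adjusted p = 0.00184) in Experiment 1, which is not called because it is smaller than 1 log2 unit. With library totals the Experiment 2 value was 0.46, and 0.85 against Abl.1 alone, both under the threshold. The copies share 583 of the 50-base words, 34.0% of those of Acaa1a and 35.5% of those of Acaa1b, and kidney reads are single-end and clone reads paired-end, so reads could be divided differently between the copies. Their RefSeq promoter windows (GRCm38.p6, Acaa1a at chr9:119341044-119341343 on the plus strand, Acaa1b at chr9:119157044-119157343 on the minus strand) are shown because Acaa1b had almost no reads in the clones while Acaa1a was read in each of their libraries, with CpG dinucleotides in capitals, 10 in Acaa1a and 4 in Acaa1b.
Acaa1a: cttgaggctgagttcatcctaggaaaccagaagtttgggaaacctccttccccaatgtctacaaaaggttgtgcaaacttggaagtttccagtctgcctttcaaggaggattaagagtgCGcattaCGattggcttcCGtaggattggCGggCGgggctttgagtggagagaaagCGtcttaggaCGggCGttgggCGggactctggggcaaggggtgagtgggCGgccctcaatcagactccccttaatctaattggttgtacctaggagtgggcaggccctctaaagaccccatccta
Acaa1b: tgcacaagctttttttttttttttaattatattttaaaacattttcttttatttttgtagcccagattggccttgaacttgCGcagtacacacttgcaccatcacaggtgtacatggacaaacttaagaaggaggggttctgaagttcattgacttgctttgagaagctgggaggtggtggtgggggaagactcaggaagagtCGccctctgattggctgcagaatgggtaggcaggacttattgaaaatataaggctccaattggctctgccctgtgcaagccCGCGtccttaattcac

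A second such pair on chromosome 13 is made of the peroxisomal isomerase gene Eci3 (chr13:34946614-34963810) and Eci2 (chr13:34977748-35027096), whose product is found in both organelles. Between them lie 13938 bases. Eci3 had 793 to 876 CPM (median 806) in Experiment 1, 1667 to 1727 (median 1702) in Experiment 2 and 1599 to 1725 (median 1684) in Experiment 3, 62 and 67 counts in Abl.1 and 5 and 2 in Abl.2. Eci2 was present in every clone library, at 56.9 and 52.2 CPM in Abl.1 and 24.7 and 25.8 in Abl.2, against 119 to 137 (median 125) in Experiment 2. The log2 fold change was 11.86 (SE 0.11) for Eci3 and 2.46 (SE 0.08) for Eci2. They share 122 of the 50-base words, 9.40% of those of Eci3. The Eci3 window (chr13:34963760-34964059) holds 11 CpG and the Eci2 window (chr13:34994095-34994394) 14, in capitals, both on the minus strand of GRCm38.p6.
Eci3: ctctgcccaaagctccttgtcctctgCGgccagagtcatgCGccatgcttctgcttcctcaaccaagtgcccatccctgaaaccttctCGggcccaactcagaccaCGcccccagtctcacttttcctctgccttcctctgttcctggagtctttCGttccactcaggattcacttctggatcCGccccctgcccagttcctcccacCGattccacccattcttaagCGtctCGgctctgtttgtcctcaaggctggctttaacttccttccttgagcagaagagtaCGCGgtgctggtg
Eci2: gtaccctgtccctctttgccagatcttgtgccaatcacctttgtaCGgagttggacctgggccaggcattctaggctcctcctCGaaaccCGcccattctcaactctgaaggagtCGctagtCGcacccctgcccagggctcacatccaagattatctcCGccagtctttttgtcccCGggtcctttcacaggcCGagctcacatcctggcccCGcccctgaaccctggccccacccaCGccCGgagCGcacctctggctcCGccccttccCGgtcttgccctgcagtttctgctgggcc

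Of the remaining peroxisomal enzymes, the trans-2-enoyl-CoA reductase gene Pecr, the phytanoyl-CoA hydroxylase gene Phyh and the dienoyl-CoA reductase gene Decr2 differed from the clones by 6.57 (SE 0.12), 5.89 (SE 0.12) and 3.93 (SE 0.14). Phyh had 556 to 596 CPM (median 574) in Experiment 2, 45.6 and 34.4 in Abl.1 and 6.31 and 6.04 in Abl.2. The carnitine acyltransferases that export shortened chains, Crot and Crat, were higher by 3.09 (SE 0.09) and 4.22 (SE 0.10). Ppara (chr15:85734983-85802819), which encodes the receptor PPARα, had no read in the clones and 20.1 to 28.8 CPM (median 22.7) in Experiment 1, 31.1 to 36.1 (median 34.4) in Experiment 2 and 41.3 to 54.4 (median 48.4) in Experiment 3, at least 947-fold above the clones in Experiment 2.

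Genes next to these in metabolism were counted from lists that do not contain them. Of 14 other mitochondrial fatty acid oxidation genes tested, 13 were called higher in Experiment 2 than in the clones, none lower, with the largest value for Acadsb, a short/branched-chain dehydrogenase, at 5.03. Of 23 other peroxisomal genes, 17 were called higher, led by the D-amino acid oxidase gene Dao at 0 counts in the clones and at least 8716-fold higher, and 1 lower, Pex14 at -1.07. Uptake and activation genes gave 6 higher and 2 lower of 10, with the tubular fatty acid transporter Slc27a2 at least 205914-fold higher and Acsl5 at -2.14. Regulators gave 5 higher and 1 lower of 8, with Hnf4a at least 17501-fold higher and Nrf1 at -2.64. Fatty acid synthesis went both ways, with 4 higher and 4 lower of 14, Me1 on 10 counts in Abl.1 and 0 in Abl.2 against 172 to 201 CPM, and Fasn at -3.85, and a list median of -0.18 against 0.43 for all genes.

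Cell type markers moved with tissue as well, and their part in these levels was not tested. Of the proximal tubule markers, 9 of 9 tested were called higher in Experiment 2, and the 10 listed summed to 17844 to 18092 CPM there, 25728 to 27442 in Experiment 1, 29.3 to 61.5 in Abl.1 and 4.25 to 7.40 in Abl.2, where 6 and 7 of them were at 0. Slc27a2, which is also in the list of uptake and activation genes, made up 7263 to 7468 CPM of the sum in Experiment 2. Miox was at 0 in kidney as well. Other nephron markers gave 10 of 10 higher, and all 10 were at 0 in Abl.1. Endothelial markers gave 5 of 6, stromal markers 3 of 3 tested (5 listed) and adipocyte markers 4 of 4 tested (6 listed). Endothelial markers summed to 601 to 630 CPM in Experiment 2, 337 to 352 in Abl.1 and 39.5 to 44.0 in Abl.2. Stromal markers summed to 225 to 252 CPM in Experiment 2, 87.2 to 109.7 in Abl.1 and 0 in Abl.2. In Abl.1, 4 of the 5 stromal markers were at 0. Adipocyte markers summed to 44.2 to 61.8 CPM in Experiment 1, 124 to 139 in Experiment 2 and 0 in the clones. Macrophage and other leukocyte markers gave 1 higher and 2 lower of 5. All 12 pre-B cell markers were lower in kidney, at 42.1 to 58.3 CPM in Experiment 2 against 10321 to 11535 in the clones. Both labelled sources thus carried markers of their tissue, and Abl.1 held counts of endothelial and stromal markers as well.

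The same kidney RNA read with a different kit and input gave different levels for some of these genes. Experiment 2 was called higher than Experiment 1 for 9 of 35 genes (background 20.3%) and lower for 2 (background 17.4%). The median of the 35 genes was 0.56 and that of all genes -0.03. With library totals the median of all genes moved by 0.36 to -0.39, the share of all calls that were higher went from 53.9% to 32.9%, and the median of the 35 genes was 0.20. Mitochondrial genes gave 5 higher and 1 lower, peroxisomal genes 4 higher and 1 lower.

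Pecr had the largest rise, from 115 to 126 CPM (median 123) in Experiment 1 to 457 to 479 (median 472) in Experiment 2, a log2 fold change of 2.31 (SE 0.04, adjusted p = 2.16e-27). Eci1, the mitochondrial isomerase gene, rose by 2.09 (SE 0.04) and Acaa2, the mitochondrial thiolase gene, by 1.80 (SE 0.03). The other mitochondrial genes called higher were Etfa at 1.66, Etfb at 1.54 and Slc25a20 at 1.19. The other peroxisomal genes called higher were Acaa1a at 1.74, Eci3 at 1.41 and Scp2 at 1.26. Hadha fell by 1.63 (SE 0.04, adjusted p = 7.8e-23) and Acox3 by 1.56 (SE 0.05, adjusted p = 4.17e-20), and for both genes no library of one experiment overlapped those of the other. Hadhb, the partner of Hadha, gave 0.53 (SE 0.04, adjusted p = 3.58e-13) and was not called because it is smaller than 1 log2 unit.

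With the same kit, a change of input from 10 ng to 0.1 ng moved these genes little. No gene was called between Experiment 3 and Experiment 2, where 0.616% of all genes were called higher and 0.411% lower. Fold changes ran from -0.54 (SE 0.05) for Acads to 0.52 (SE 0.09) for Ppara. At an unadjusted p under 0.05, 10 genes were higher and 8 lower with edgeR, and the share of all genes at that threshold was not counted. At adjusted p under 0.05 without a minimum change, 8 were higher and 6 lower, where all genes gave 8.84% and 6.98%. With the minimum of 1 log2 unit, DESeq2 called none either. Ppara had 31.1 to 36.1 CPM (median 34.4) in Experiment 2 and 41.3 to 54.4 (median 48.4) in Experiment 3, ranges that did not overlap.

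**Figure D2:**
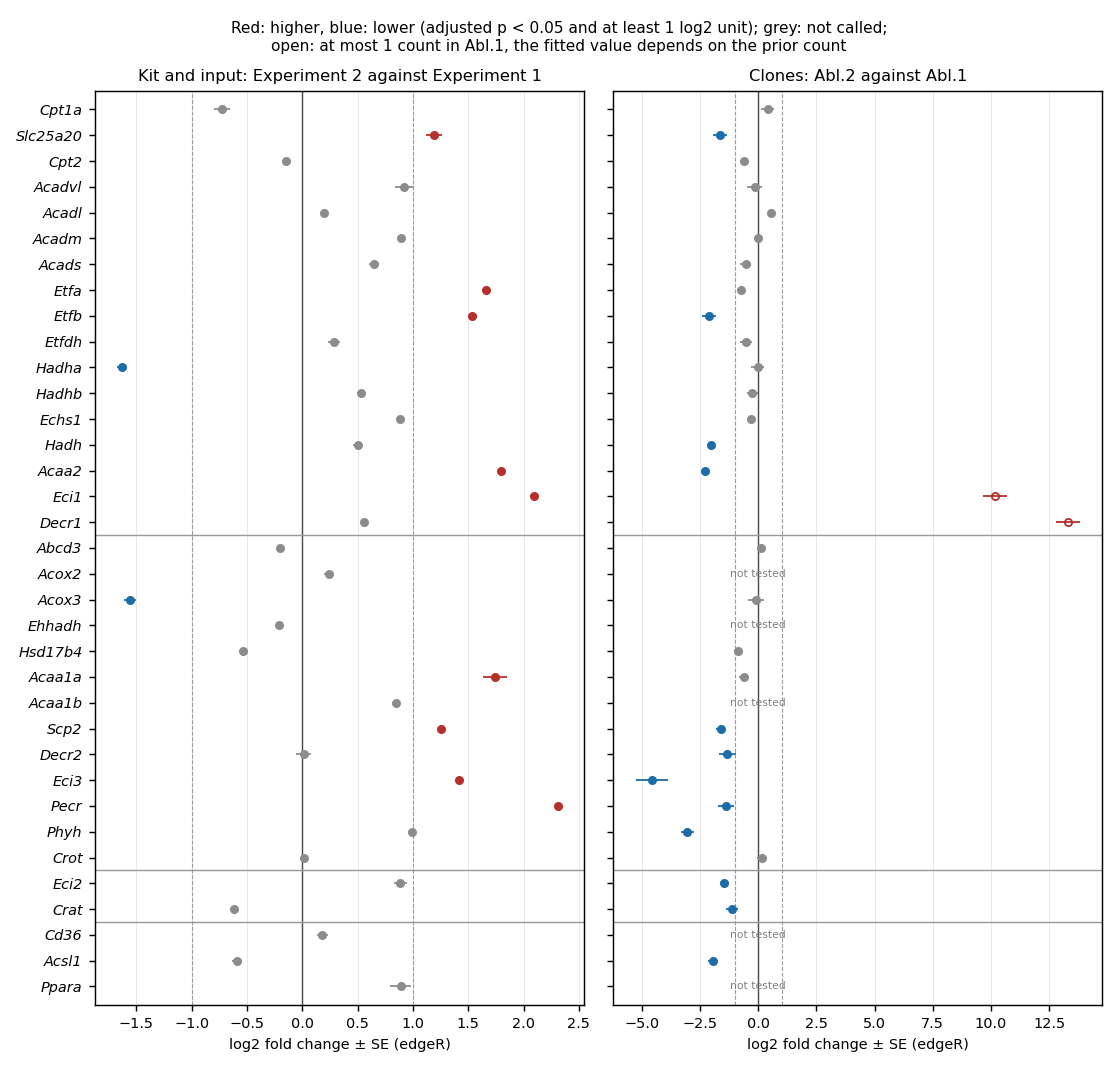
log2 fold change with its standard error for each gene between kits and inputs (Experiment 2 against Experiment 1, 6 libraries each) and between clones (Abl.2 against Abl.1, 2 libraries each). Red and blue points are called higher and lower, grey points are not called, and open points have at most 1 count in Abl.1, so that their fitted value is not a bound. Hadha and Acox3 are the only genes called lower in the kit comparison, and Phyh and Eci3 are farthest left between clones.

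The clones also differed from each other. Of the 30 genes tested, Abl.2 was called lower than Abl.1 for 12 (background 19.9%) and higher for 2 (background 16.4%), with a median log2 fold change of -0.60 against 0.01 for all genes. With library totals the median of all genes moved by 0.34 upwards and the share of all calls that were higher went from 45.2% to 61.6%. Mitochondrial genes gave 4 lower and 2 higher of 17, peroxisomal genes 5 lower of 10, and Eci2, Crat and Acsl1 were lower too. Acox2, Ehhadh, Acaa1b, Cd36 and Ppara had too few reads to be tested.

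Phyh, the phytanic acid enzyme, had 45.6 and 34.4 CPM in Abl.1 and 6.31 and 6.04 in Abl.2, a log2 fold change of -3.06 (SE 0.28, adjusted p = 0.000783). Acaa2 had 387 and 519.9 CPM in Abl.1 and 122 and 116 in Abl.2, at -2.27 (SE 0.19, adjusted p = 0.000611). Hadh had 78.7 and 105 CPM against 28.8 and 28.5, at -2.02 (SE 0.19, adjusted p = 0.000806). For these 3 genes the libraries of each clone lay well apart from those of the other, and the same held for Acsl1, Scp2 and Eci2. How many of all genes separate the 2 libraries of each clone in this way was not counted. Acsl1 gave -1.94 (SE 0.22, adjusted p = 0.00157), Scp2 -1.61 (SE 0.20, adjusted p = 0.00209) and Eci2 -1.46 (SE 0.20, adjusted p = 0.00282). Etfb gave -2.11 (SE 0.31, adjusted p = 0.00406), although its Abl.1 libraries themselves stood at 416 and 257 CPM, and Slc25a20 gave -1.65 (SE 0.30, adjusted p = 0.00766). Eci3 gave -4.57 (SE 0.70, adjusted p = 0.00434), on 62 and 67 counts in Abl.1 and 5 and 2 in Abl.2. Decr2, Pecr and Crat were also called, at -1.32, -1.40 and -1.13. Each of them lost its call with library totals, Pecr also without replicate 1 of Abl.2, and Decr2 and Crat without replicate 2 of Abl.1 or either library of Abl.2. In these settings the values were -1.06 and -1.08 for Pecr, -0.94 to -1.51 for Decr2 and -0.79 to -1.22 for Crat, so the direction held.

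Decr1 and Eci1 went the other way. Abl.2 was at least 917-fold higher for Decr1, which had no read in Abl.1, and its ratio to the single Abl.1 count of Eci1 was 1779, with a 95% counting interval of 319 to 70304. Both enzymes serve unsaturated fatty acids in the mitochondrion. The peroxisomal isomerase gene Eci3 and Eci2, the isomerase gene of both organelles, were lower in the same clone.

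AI was estimated from counts pooled over the libraries of a group. The spread of AI between libraries exceeds binomial sampling by a factor called the quality correction constant (QCC), and counts were divided by its square before each proportional test, with Bonferroni adjustment over all genes with at least 50 pooled counts. QCC was 1.85 in Experiment 1, 1.47 in Experiment 2, 2.59 in Experiment 3, 2.52 in Abl.1 and 2.15 in Abl.2. Each kidney value is a mean over 15 pairs of libraries, while each clone value rests on 1 pair. Without replicate 1 of Experiment 1, which the study treats as an outlier, the value there was 1.73. All 35 genes could be tested in kidney, 28 in Abl.1 and 29 in Abl.2.

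In kidney, AI differed from 0.5 for 15 of 35 genes in Experiment 1 (background 16.6%), 21 in Experiment 2 (background 22.7%) and 16 in Experiment 3 (background 12%). Without replicate 1 of Experiment 1 the count there was again 15 (1952 of 11990 over all genes), but Acadl and Hsd17b4 lost their calls. The background of AI calls, here and below, holds every gene with at least 50 pooled counts. It was not matched for depth, on which the power of the test depends. Whether genes of equal depth give the same shares was not tested. Peroxisomal genes gave 9, 10 and 7 of 13 and mitochondrial genes 5, 8 and 7 of 17. All 3 experiments called 12 genes, 3 towards the maternal allele (Acadm, Scp2 and Decr2) and 9 towards the paternal allele, and none called 11. The share of all genes called in all 3, and its split by allele, was not counted. This split can therefore not be set against a background. The experiments are readings of one RNA, so this repeats the measurement and not the animal.

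Acadm had the strongest maternal bias among mitochondrial genes, with AI of 0.826 (95% interval 0.821 to 0.832) in Experiment 1, 0.747 (95% interval 0.742 to 0.751) in Experiment 2 and 0.743 (95% interval 0.736 to 0.751) in Experiment 3. Single libraries ran from 0.818 to 0.836, 0.736 to 0.760 and 0.733 to 0.753, so that Experiment 1 stood apart from the SMARTseq experiments. Its maternal allele had 1324 CPM on average in Experiment 1 and 1738 in Experiment 2, and its paternal allele 278 and 590 (rounded means of 6 libraries). A share of 4.10% of its 50-base words is also found in Gm5131. Decr2, the peroxisomal reductase gene, was maternal at 0.673 (95% interval 0.642 to 0.702), 0.698 (95% interval 0.672 to 0.724) and 0.806 (95% interval 0.760 to 0.846), on only 3198, 2532 and 2155 pooled counts.

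Both near-absent copies of the clones were paternal in kidney. Acaa1b had AI of 0.219 (95% interval 0.203 to 0.237), 0.198 (95% interval 0.188 to 0.209) and 0.225 (95% interval 0.206 to 0.244), with single libraries between 0.187 and 0.233 over all 18. Its neighbour Acaa1a was at 0.543, 0.505 and 0.520 and not called in any experiment. Eci3 had 0.326 (95% interval 0.316 to 0.336), 0.325 (95% interval 0.319 to 0.330) and 0.327 (95% interval 0.318 to 0.336), nearly identical in the 3 experiments, whereas Eci2 was at 0.553, 0.584 and 0.568 and called only in Experiment 2.

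The fatty acid receptor gene Cd36 was paternal at 0.322, 0.320 and 0.326, and the oxidase gene Acox2 at 0.363, 0.372 and 0.361. Ehhadh had smaller departures, at 0.438, 0.442 and 0.427, which its 50663 pooled counts in Experiment 1 could resolve. Etfa was paternal at 0.401, 0.374 and 0.373 while its partner Etfb, at 0.481, 0.486 and 0.489, was not called. The other genes paternal in all 3 were Hadhb, Hadh and Crot. Ppara was called only in Experiment 3, at 0.340 (95% interval 0.289 to 0.398), where QCC was highest and 1927 counts were pooled.

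The median AI of other genes within 5 Mb was 0.497 for Acadm over 25 genes, 0.494 for Acaa1b over 70 and 0.483 for Eci3 over 38 in Experiment 2. Around Cd36 it was 0.484 in Experiment 2 and 0.436 in Experiment 1. Around Acox2 the 3 experiments gave 0.496, 0.461 and 0.443, over 13 to 16 genes, and 25% of those genes were under 0.1 in Experiments 2 and 3. Over all genes of Experiment 2 the median was 0.503.

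**Figure D3:**
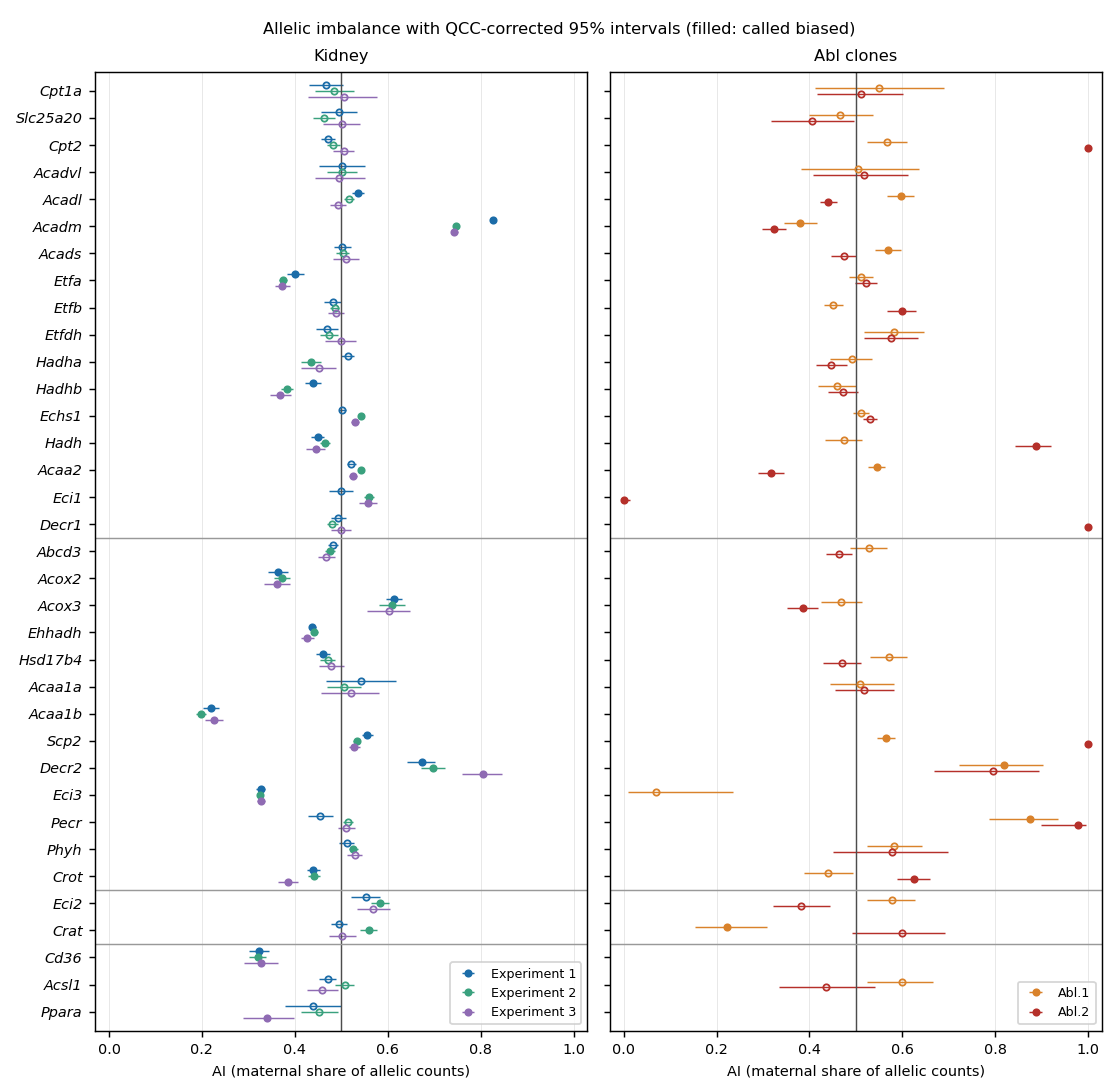
AI of each gene in the kidney experiments and in the clones, with QCC-corrected 95% intervals, where 0.5 is equal expression of both alleles and values near 1 are maternal. Filled points are called biased, and genes under 50 pooled counts have no point. Acadm lies right of 0.5 in kidney and left of it in both clones.

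Between Experiments 1 and 2, AI differed for 5 of 35 genes (background 3.74%). Acadm moved by -0.080 (adjusted p = 1.21e-95), Hadha by -0.079 (adjusted p = 1.73e-05), Hadhb by -0.056 (adjusted p = 0.00812), Echs1 by 0.040 (adjusted p = 4.77e-13) and Crat by 0.063 (adjusted p = 0.0218). Hadha had 0.513 in Experiment 1 and 0.434 in Experiment 2, and Hadhb 0.439 and 0.383, so AI of the head-to-head pair moved in the same direction while levels did not. The Crat call was lost without replicate 1 of Experiment 1 (0.059). Acadm and Hadhb also differed between Experiments 1 and 3 (2 of 35, background 2.46%), by -0.083 and -0.070. Between Experiments 2 and 3, with the same kit, none was called (background 0.384%), and edgeR on the allele counts called none.

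In the clones, AI differed from 0.5 for 8 of 28 genes in Abl.1 (background 23.8%) and 12 of 29 in Abl.2 (background 31.9%). Leaving out either library of Abl.1 reduced the first count to 4 or 2, where all genes gave 1840 and 1640 in place of 2539. Between the clones 10 of 27 genes differed (background 19.8%), and 6 without replicate 2 of Abl.1, where all genes gave 1519 in place of 1891.

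Cpt2, Scp2 and Decr1 all lie on chromosome 4, and in Abl.2 they were read from the maternal allele alone or nearly so. AI in Abl.2 was 0.999 (95% interval 0.993 to 1.000) for Cpt2, 0.999 (95% interval 0.995 to 1.000) for Scp2 and 1.000 (95% interval 0.994 to 1.000) for Decr1, on 2695, 6691 and 2887 counts. In Abl.1, Cpt2 was at 0.567 and Scp2 at 0.565. Of 696 genes measured on chromosome 4 in Abl.2, 94.0% had AI over 0.9 and the median was 0.999, against 10.2% of genes over all chromosomes and a chromosome 4 median of 0.509 in Abl.1. The values of these 3 genes were thus those of their chromosome. Maternal reads of Cpt2 averaged 42.6 CPM in Abl.1 and 62.6 in Abl.2, and paternal reads 32.6 and 0.0695. For Scp2 the maternal averages were 211 and 156, and the paternal averages 161 and 0.162.

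Other clone values stood apart from their surroundings. Eci1 in Abl.2 was paternal, at 0.002 (95% interval 0.000 to 0.014) on 1866 counts, while 136 genes within 5 Mb had a median of 0.486. Hadh in Abl.2 was at 0.888 (95% interval 0.844 to 0.920), with libraries at 0.928 and 0.849, against a local median of 0.485 over 31 genes and 0.474 in Abl.1. The difference between clones was 0.414 (adjusted p = 1.75e-26). Its paternal reads averaged 48.5 CPM in Abl.1 and 3.19 in Abl.2, and its maternal reads 43.5 and 25.5, so both alleles were read less in Abl.2.

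Pecr was maternal in both clones, at 0.874 (95% interval 0.787 to 0.936) in Abl.1 and 0.979 (95% interval 0.899 to 0.997) in Abl.2, against 0.481 and 0.497 around it and 0.514 in Experiment 2. It rested on 478 and 239 counts, and in each clone the call was lost without replicate 2, with AI minus 0.5 at 0.359 in Abl.1 and 0.5 in Abl.2. Decr2 had 0.820 in Abl.1 and 0.795 in Abl.2, the second not called, so it lay on the maternal side in all 5 groups. Its Abl.1 call was lost without either library, with AI minus 0.5 at 0.304 without replicate 1 and 0.353 without replicate 2. Crat went apart, at 0.223 in Abl.1 and 0.6 in Abl.2, but its libraries ran at 0.368 and 0.139 and 0.481 and 0.7, and the call between clones was lost without replicate 2 of Abl.1 or of Abl.2 (0.232 and 0.258). Eci3 in Abl.1 had 0.070 on 129 counts and was not called.

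Acaa2 had 0.545 in Abl.1 and 0.317 in Abl.2, a difference of -0.228 (adjusted p = 4.4e-34). Maternal reads averaged 247 CPM in Abl.1 and 37.7 in Abl.2, and paternal reads 207 and 81.0. Acadl, the long-chain dehydrogenase gene, moved by -0.156, Etfb by 0.148 and Crot by 0.184. In Abl.1 Etfb at 0.451 lay among 82 genes with a median of only 0.163, and in Abl.2 Crot at 0.625 matched its local median of 0.627. Acads and Eci2 made up the 10, at -0.096 and -0.196. The Crot call was lost without replicate 2 of either clone (0.124 and 0.174), the Acads call without replicate 2 of Abl.1 (-0.042) or replicate 1 of Abl.2 (-0.082), and the Eci2 call without any single library (-0.213 to -0.180).

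**Figure D4:**
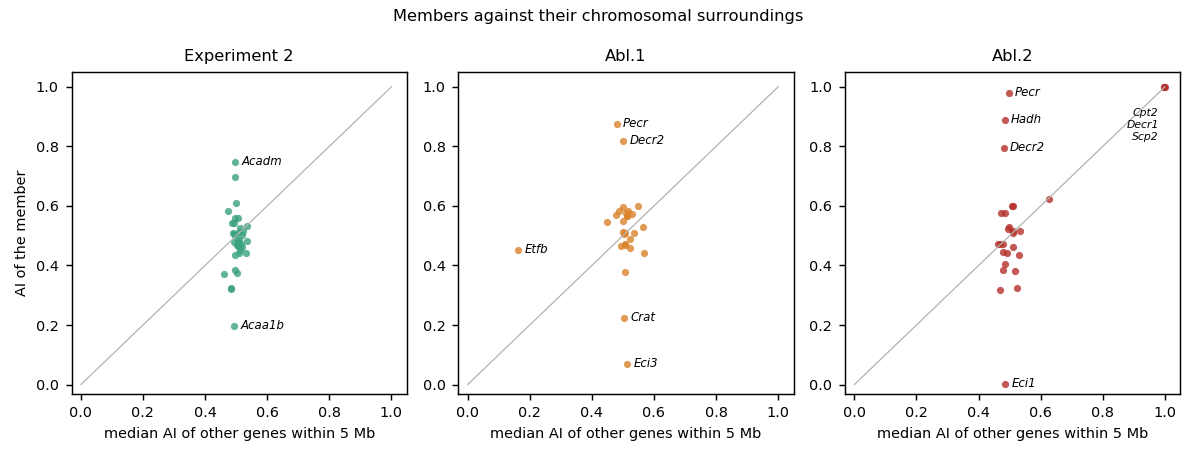
AI of each gene against the median AI of other genes within 5 Mb in Experiment 2, Abl.1 and Abl.2, with the line of equality in grey. In Abl.2 Cpt2, Scp2 and Decr1 lie at the top right on the line, and Pecr, Hadh, Decr2 and Eci1 lie far from it.

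Set against kidney, AI of Experiment 2 differed from Abl.1 for 7 of 28 genes (background 16.9%) and from Abl.2 for 15 of 29 (background 23.5%). Without replicate 2 of Abl.1 the first count was 3, where all genes gave 1060 in place of 1508. Acadm turned from the maternal to the paternal side, from 0.747 in Experiment 2 to 0.380 in Abl.1 (adjusted p = 1.3e-100) and 0.323 in Abl.2 (adjusted p = 6.22e-237). The clone libraries had 0.398 and 0.366 in Abl.1 and 0.319 and 0.327 in Abl.2, all below any kidney library. Without replicate 2 the bias in Abl.1 was no longer called, with AI minus 0.5 at -0.102. Maternal reads of Acadm averaged 1738 CPM in Experiment 2, 40.3 in Abl.1 and 42.8 in Abl.2, and paternal reads 590, 65.5 and 89.7. Local medians in the clones were 0.506 and 0.522. Etfa went from 0.374 in kidney to 0.511 and 0.522 in the clones, where it was not called. Acox3, maternal at 0.609 in kidney, was at 0.469 in Abl.1 and 0.385 in Abl.2, and differed from kidney in both. The other genes that differed from Abl.1 were Acadl, Hsd17b4, Pecr and Crat. From Abl.2, differences were also called for Cpt2, Acadl, Etfb, Hadhb, Hadh, Acaa2, Eci1, Decr1, Scp2, Pecr, Crot and Eci2.

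RefSeq promoter windows were found for 31 of the 35 genes. A direct repeat of AGGNCA with 1 base of any kind between the copies, a strict form of the element bound by PPARα with RXR and by HNF4A, was searched on both strands and occurred in 0 of the 31 genes and in 0.451% of all genes. The single element AGGTCA, whose matches can overlap those of the repeat, was in 7 of 34 member windows, 20.6%, against 16.3% of all windows. The member windows held a median of 17 CpG, against 7 in all windows. A match is a description of letters in a window of 300 bases, and no match says only that these letters are not there.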

How the data were processed

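RNA-seq of 18 kidney libraries and 4 clone libraries (2 of them sequenced again, 24 samples in all) was analysed from tables of whole-number allelic counts per gene. According to the study's methods and the submitters' processing notes, the authors aligned reads with STAR 2.5.4a to parental pseudogenomes built on GRCm38, sampled reads to equal numbers, counted allele-specific reads at heterozygous SNPs with samtools and summed the counts over exons of each gene before they were deposited. Genes without usable SNPs are therefore at 0, and levels are not comparable between genes. A read or read pair over several SNPs can add several counts. Kidney reads are single-end and clone reads paired-end, so levels are directly comparable only between libraries of one read layout. The effect of layout on kidney against clones was not tested.

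The members and gene lists were chosen with earlier results of these data known. From the deposited counts, both alleles were summed per gene, genes on X were left out (kidney has no counts there), and levels were tested with edgeR 4.0.16 (R 4.3.3; TMM, filterByExpr, quasi-likelihood test, contrasts against the mean of both clones), with Benjamini-Hochberg adjustment over all genes tested, and called at adjusted p under 0.05 and 1 log2 unit. Standard errors were derived from the F statistic. AI was tested with the proportional test of the study's methods on pooled counts divided by QCC squared, with Bonferroni adjustment over genes with at least 50 pooled counts. The first run of Abl.2 was used. Steps were tested on simulated data: edgeR found 95 of 100 genes changed 2-fold and 100 of 100 changed 4-fold in Experiment 2 against the clones (13698 genes) and called 8 of 12711 unchanged genes. For Abl.2 against Abl.1 it found 87 of 100 changed 2-fold. Genes counted as found there had adjusted p under 0.05 in the right direction, without the minimum of 1 log2 unit. A 2-fold change lies at that minimum, so the share that the reported rule would call was not tested. The same dispersion was simulated for all genes and groups. At the depth of 1 Experiment 2 library, the AI test called 156 of 200 genes given a bias at QCC 1.5 and 107 at QCC 2. Genes whose AI is not called may therefore still be biased. All 35 members are named, and of each other metabolic list the called gene with the largest change in each direction, except for one list whose result is not reported here. The rule also covered cell type lists, which are given by counts and sums instead. Replicate numbers are those of the sample titles, and another label field numbers most libraries differently. Genes named with the counts of calls lost under an alternative were chosen after their values were seen. Shared 50-base words were counted in GENCODE M21 transcripts, and promoter windows came from RefSeq tables. Other normalizations, DESeq2 1.42.0, other filters, left-out libraries and a replicate block were tried as alternatives. Apart from those windows and transcripts, no genome or protein sequence was used here.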

Additional observations from a re-analysis of the deposited data

Results flagged for a closer look

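Of 210 sets of 6 kidney libraries examined (CPM and AI of each gene in each experiment), 7 held a library far from the other 5 by Dixon's test, where chance gives about 1 in 20, or 10.5. They were Etfa in replicate 1 of Experiment 1 (274 CPM), Acox3 in the same library (219 CPM), Hadha (103 CPM), Hadh (418 CPM) and Ehhadh (932 CPM) in replicate 4 of Experiment 2, Ehhadh in replicate 1 of Experiment 3 (967 CPM) and AI of Eci2 in replicate 5 of Experiment 3 (0.633). Replicate 4 of Experiment 2 held 3 of the 7.

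Levels differed between the clones for 14 of 30 genes tested with edgeR. The log2 fold changes of Abl.2 against Abl.1 were -1.65 for Slc25a20, -2.11 for Etfb, -2.02 for Hadh, -2.27 for Acaa2, -1.61 for Scp2, -1.32 for Decr2, -4.57 for Eci3, -1.40 for Pecr, -3.06 for Phyh, -1.46 for Eci2, -1.13 for Crat and -1.94 for Acsl1. Eci1 and Decr1 had fitted values of 10.17 and 13.30, which depend on the prior count because Abl.1 held at most 1 read of either gene.

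AI differed between the clones for 10 of 27 genes by the proportional test on QCC-corrected counts. As Abl.2 minus Abl.1, the differences were 0.432 for Cpt2, -0.156 for Acadl, -0.0962 for Acads, 0.148 for Etfb, 0.414 for Hadh, -0.228 for Acaa2, 0.434 for Scp2, 0.184 for Crot, -0.196 for Eci2 and 0.377 for Crat. Scp2 and Cpt2 lie on chromosome 4, where the median AI of Abl.2 was 0.999.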

How the results depend on the processing

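Of the counts of genes called, 170 stayed within 1.5 times the value reported and 26 moved. Of the values of single genes, 1044 kept their direction and side of the threshold, 48 lost the call, 1 gained it and 1, Acox3 in Experiment 2 against the clones, reversed to -0.21 with library totals. With adjusted p alone, Experiment 1 against the clones had 1 gene lower, where 36.8% of all genes were lower. Experiment 2 against Experiment 1 had 24 higher and 9 lower, where all genes gave 38.3% and 39.6%. Experiment 3 against Experiment 2 had 8 higher and 6 lower, where all genes gave 1033 and 816 in place of 72 and 48. With counts not divided by QCC squared, 18 genes were biased in Abl.1, where all genes gave 5588 of 10654. AI differed for 9, 13 and 9 genes between Experiments 1 and 2, 1 and 3, and 2 and 3. It differed for 16 between the clones and for 19 between Experiment 2 and Abl.1. Over all genes these counts were 1222, 1791, 701, 3810 and 3152. With Benjamini-Hochberg adjustment 16 were biased in Abl.1, where all genes gave 4828. Between Experiments 1 and 2, 1 and 3, 2 and 3, and Experiment 2 and Abl.1, 9, 10, 3 and 16 differed. The counts over all genes were 1214, 770, 142 and 3073. With edgeR on allele counts 9, 7 and 19 differed between Experiments 1 and 2, 1 and 3, and Experiment 2 and Abl.1. All genes gave 1052, 585 and 3048. Over all genes, dividing by QCC squared gave 428 differences between Experiments 1 and 2 and no division gave 1222, Benjamini-Hochberg 1214 and edgeR 1052. With 1 library left out, 2 to 4 genes were biased in Abl.1, where all genes gave 1640 to 1840. Between the clones 6 to 9 differed, and 1519 to 1660 of all genes. Between Experiment 2 and Abl.1 it was 3 to 6, and 1060 to 1157 of all genes. A replicate block was fitted although equal numbers, taken from the sample titles, did not pair the libraries (correlations of deviations from -0.027 to 0.112, with the equal number nearest in 10 of 24 comparisons over pairs of groups). With the block, edgeR on allele counts found 9, 6 and 11 genes different between Experiments 1 and 2, 1 and 3, and Experiment 2 and Abl.1. Among all genes it found 968, 462 and 2314. Beyond the settings themselves, the cause of these changes was not tested. Depth limits AI of genes under 500 pooled counts, such as Pecr and Decr2 in the clones.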
